A study of Homo sapiens with 3 samples.

Results

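The genes described here are 29 components of the RAS, RAF and PI3K routes that carry signals away from receptor tyrosine kinases, taken by gene name from the 41749 gene names on the array. They are adaptors, RAS proteins and their inhibitors, RAF, MEK, ERK and RSK kinases, PI3K subunits, AKT kinases and a few linked kinases and effectors. Each gene is represented by its brightest probe over the 3 arrays, and 46 probes carry the 29 names. Of the 29 genes, 27 were well above background on every array, and GAB1 and KSR1 were above it on none.

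The data come from HCT116, an established human colorectal carcinoma cell line, profiled on 3 one-colour Agilent 60-base oligonucleotide arrays that shared 1 slide and 1 scan. One array held RNA of negative control cells (PRMT1-NC, here NC), and the others held RNA of cells in which PRMT1 had been silenced (PRMT1-KD1 and PRMT1-KD2, here KD1 and KD2). All cells were of the same line, no time after transfection is given in the labels, and the labels do not say which oligonucleotide produced which knockdown array. PRMT1 is the main enzyme that places asymmetric dimethyl marks on arginine 3 of histone H4, and the study asked which genes, EGFR signalling among them, depend on it. Each group had 1 array, so no value has a replicate error, and the difference between KD1 and KD2 stands in for one. Its robust SD over the 17054 genes detected on all arrays was 0.38 on the log2 scale. That difference also holds any true difference between the knockdowns, and it does not cover the NC array that both comparisons share.

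Receptor tyrosine kinases such as EGFR recruit adaptors (GRB2, SHC1) and the exchange factors SOS1 and SOS2, which load RAS with GTP, and active RAS engages RAF, which activates MEK and then ERK. The same receptors and RAS activate PI3K, whose lipid product brings AKT to the membrane. NF1 and RASA1 return RAS to its inactive state. Both routes are frequently active in colorectal cancer, and their activity is set mainly on the protein, by phosphorylation and GTP loading, which RNA levels do not show.

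The silencing oligonucleotides against PRMT1 are given in the labels and are printed here in lower case because they define the knockdown groups.
PRMT1 siRNA-1: cugaaguccaggucgauggugaaguc
PRMT1 siRNA-2: uuguagucuuuguacugcc
The first is 26 bases long and the second 19. Neither of them, nor its reverse complement, occurs in the array's PRMT1 probe, which lies across a splice junction on the plus strand (hg19, chr19:50188248-50189362).
PRMT1 probe: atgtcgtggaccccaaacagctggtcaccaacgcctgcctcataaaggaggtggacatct
Signals below are log2 values relative to the 75th percentile of each array, so 0 is that percentile, and a difference of 0.585 is 1.5-fold. The PRMT1 signal was 6.03 in NC, 2.75 in KD1 and 1.48 in KD2, which leaves 10.3% and 4.26% of the NC signal. Both knockdown arrays were therefore low in the target, as labelled. Of the epithelial markers, 6 of 8 were above background on all arrays, with VIL1 and CEACAM5 below it on all 3. Of the 10 markers of other cell types, 4 (CD14, COL1A1, VWF and ALB) were above background on all arrays and PTPRC on 1 array.

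At their brightest probes, 20 of the 27 measured members were within 1.5-fold of NC in KD1 and 21 in KD2. In KD1, 6 of the 27 measured members were at least 1.5-fold higher and 1 was lower, against 12.4% and 14% of all 19231 genes measured. In KD2, 4 were higher and 2 lower, against 9.68% and 10.6% of 19421 genes. The members past this fold thus made up 22.2% higher and 3.7% lower in KD1, and 14.8% and 7.41% in KD2. The median member differed by 0.14 in KD1 and 0.08 in KD2, where the median of all genes was -0.07 and -0.05. STAT3, NRAS and MAP2K1 were past 1.5-fold above NC in both knockdowns at these probes, and no member was past it below NC in both. The share of all genes past it the same way in both knockdowns was not counted. Whether these members exceed that share is therefore not known. KD1 and KD2 were measured against the same NC array, so an unusual NC value moves both differences alike. In RNA of whole cultures, fewer cells that express a gene and less RNA per cell cannot be told apart.

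**Figure D1:**
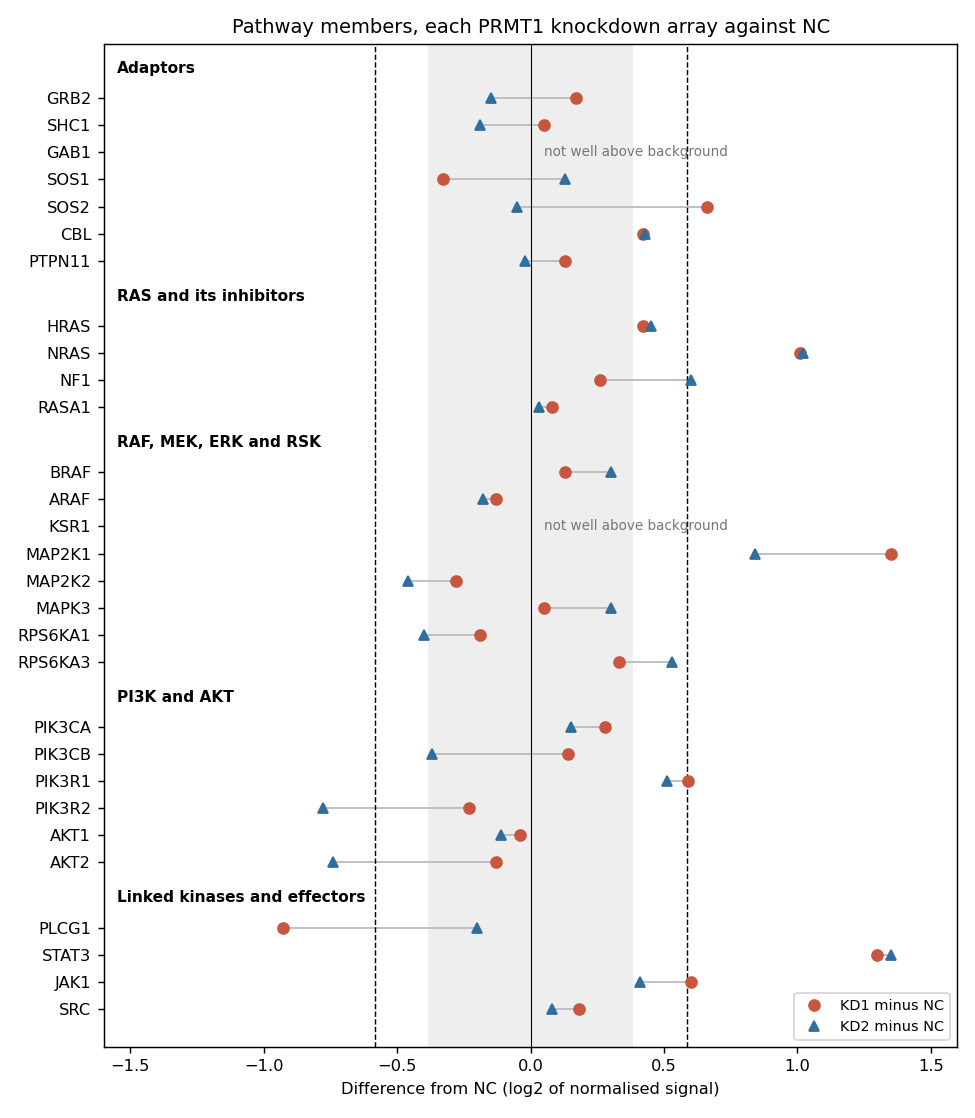
Difference of KD1 (circles) and KD2 (triangles) from NC for each member, on the log2 scale, grouped by role. Dashed lines mark 1.5-fold, the grey band is 1 robust SD of KD1 minus KD2 over all genes (0.38), and STAT3, NRAS and MAP2K1 have both points to the right of the dashed line.

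The scaling of the arrays decides how many members are counted as higher. Scaled on the E1A spike-in controls, 20 members were higher and 0 lower in KD1, and 10 higher and 0 lower in KD2, where the median of all genes itself moved to 0.57 and 0.22. With the authors' unscaled processed values the members split into 12 higher and 0 lower in KD1, and 6 higher and 2 lower in KD2, with all genes at 0.35 and 0.04. With each array's median in place of its 75th percentile KD2 had 3 members higher and 3 lower, with all genes at -0.22, and the members' median in KD2 turned to -0.07. After normexp background correction 3 members were higher in each knockdown, 1 lower in KD1 and 2 lower in KD2, with all genes at -0.03 and -0.04. The share of all genes past 1.5-fold under these settings is not given here. These counts can therefore not be set against all genes. NRAS and MAP2K1 were past 1.5-fold above NC in both knockdowns under each of the 13 alternatives tried, and STAT3 under 12 of them. The exception was the choice of the probe that is brightest on the NC array, added after these values were seen, with which STAT3 was 0.42 in KD1 and 0.68 in KD2. None of the alternatives rests on the dimmer NRAS probe alone, which was inside 1.5-fold in KD1, at 0.42. Some alternatives could not change these results. Those that alter only the filter leave genes above background on all arrays as they are. Those that alter only the probe leave MAP2K1 as it is, since it has 1 probe.

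The adaptors and exchange factors near the receptor were mostly close to NC. SOS2, an exchange factor that loads RAS with GTP, read 0.50 in NC, 1.15 in KD1 and 0.44 in KD2. It was 158% of NC in KD1 and 96.3% in KD2, so KD1 stood apart from the other arrays by more than 1.5-fold (0.71 above KD2). The KD1 difference of SOS2 fell to 0.56 after normexp and to 0.42 when the median change of probes with similar GC content and signal was subtracted, both inside 1.5-fold.

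SOS1, the paralogue with the same function, was measured by a pair of probes on 1 transcript, shown because they gave different answers. They lie on the minus strand of chromosome 2 (hg19, chr2:39222293-39222352 and chr2:39213271-39213330) and start at bases 3298 and 3677 of the transcript.
SOS1 probe at base 3298: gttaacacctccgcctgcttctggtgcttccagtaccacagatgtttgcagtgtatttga
SOS1 probe at base 3677: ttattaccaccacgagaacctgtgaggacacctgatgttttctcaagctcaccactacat
The brighter first probe read -0.80 in NC, -1.13 in KD1 and -0.67 in KD2. The dimmer second probe read -1.86, -2.85 and -1.91. Both were lowest in KD1, with differences from NC of -0.33 for the first and -0.99 for the second, and only the second was past 1.5-fold. The mean over both probes in KD1 was -0.66, past 1.5-fold. In KD2 neither probe was more than 0.13 from NC.

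CBL, a ubiquitin ligase that marks active receptors for degradation, was 134% of NC in both knockdowns, with signals of 1.43, 1.86 and 1.86. GRB2, the adaptor that carries SOS to the receptor, differed by 0.17 in KD1 and -0.15 in KD2. SHC1, another adaptor, differed by 0.05 and -0.19 at its brightest probe and by 0.52 and 0.57 at its second probe, which is annotated to a different transcript. PTPN11, the phosphatase SHP2 that promotes RAS activation, differed by 0.13 and -0.02 at its brightest probe and by -0.48 and -0.28 at its second. The docking protein GAB1 was not well above background on any array.

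The 4 members of the RAS group were above NC in both knockdowns at their brightest probes, except that RASA1 in KD2 turned to -0.12 with median scaling and to -0.01 after the subtraction for similar GC content and signal. The brightest probe of NRAS, a RAS GTPase, read 1.05 in NC and 2.07 on both knockdown arrays (hg19, chr1:115249933-115249992). That is 202% of NC in KD1 and 203% in KD2, and the knockdown arrays differed from each other by less than 0.01. A second NRAS probe, 791 bases upstream in the same transcript (hg19, chr1:115251165-115251224, minus strand), read 0.90, 1.31 and 1.49.
NRAS probe at base 755: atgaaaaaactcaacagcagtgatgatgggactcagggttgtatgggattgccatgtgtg
Its differences from NC were 0.42 and 0.59, so both NRAS probes were higher in both knockdowns, and the downstream probe by the wider margin. In limma, with KD1 and KD2 taken as 1 group against the single NC array, NRAS differed by 1.02 (SE 0.32, unadjusted p = 0.012, adjusted p = 0.436).

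HRAS, another RAS GTPase, was measured by a splice-junction probe spotted 10 times on each array (hg19, chr11:533600-533812, minus strand), which gives its signal a spot error.
HRAS probe at base 431: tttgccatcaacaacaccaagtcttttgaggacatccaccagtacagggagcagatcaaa
The mean over spots was 3.84 ± 0.034 in NC, 4.25 ± 0.038 in KD1 and 4.29 ± 0.038 in KD2 (SD over 10 spots of 1 array). The NC spots ended at 3.88 and the lowest knockdown spot was 4.20, so the spots of NC did not overlap those of either knockdown. Across repeated probes the median spot SD was 0.038 to 0.049, small beside the robust SD of 0.38 between KD1 and KD2 over all genes. Spots of a probe can therefore fail to overlap between arrays at small differences, as those of SHC1 below also do. HRAS was 134% of NC in KD1 and 137% in KD2, under 1.5-fold. Spots of 1 array share the RNA, so their SD measures the spotting and scanning of that array and not the spread between cultures.

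**Figure D2:**
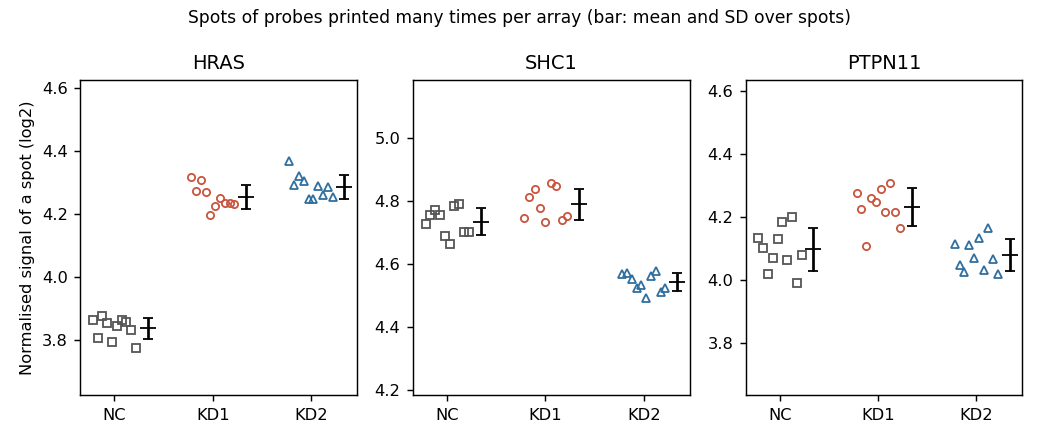
Normalised log2 signal of each spot (open symbols) of the HRAS, SHC1 and PTPN11 probes printed many times per array, with the mean and SD over spots as bars. HRAS spots in NC lie between 3.77 and 3.88 and all knockdown spots at or above 4.20. The PTPN11 spots of the 3 arrays overlap, and the SHC1 spots of KD2 lie below those of NC and KD1. How often other repeated probes show such gaps was not counted.

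SHC1 and PTPN11 were also spotted many times. SHC1 gave 4.73 ± 0.043 in NC, 4.79 ± 0.05 in KD1 and 4.54 ± 0.029 in KD2 (SD over 10, 9 and 10 spots). PTPN11 gave 4.10 ± 0.067, 4.23 ± 0.06 and 4.08 ± 0.05 (SD over 10 spots each). The SHC1 spots of KD2 ended at 4.58, under the lowest NC spot at 4.66, and the PTPN11 spots overlapped among all arrays. The SHC1 difference in KD2 was -0.09 in the unscaled values and 0.10 with E1A scaling, so this separation depends on the scaling. How often the spots of other repeated probes fail to overlap between arrays was not counted.

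The brightest probe of NF1, neurofibromin, which switches RAS off, read 0.11 in NC, 0.37 in KD1 and 0.71 in KD2, or 120% and 151% of NC. Its other 3 probes differed from NC by -0.15 to 0.25 in KD1 and by 0.04 to 0.38 in KD2. The KD2 difference of NF1 was 0.60 at the brightest probe and 0.32 as the mean over its 4 probes, which is inside 1.5-fold, as it also was with median scaling (0.45), normexp (0.37) and the subtraction for similar probes (0.52). RASA1, a second RAS GTPase-activating protein, differed by 0.08 and 0.03.

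Among RAF, MEK, ERK and RSK, only MAP2K1 was past 1.5-fold of NC at its brightest probe. MAP2K1, the kinase MEK1 that phosphorylates ERK, read 1.49 in NC, 2.84 in KD1 and 2.33 in KD2 (hg19, chr15:66783224-66783283). This was 255% of NC in KD1, rank 315 of 19231 genes from the highest difference down, and 179% in KD2, rank 870 of 19421. In limma MAP2K1 differed by 1.1 (SE 0.35, unadjusted p = 0.0135, adjusted p = 0.45). MAP2K2, the paralogue MEK2, went the other way, at 82.1% and 72.7% of NC, inside 1.5-fold, with signals of 4.42, 4.14 and 3.96. The MAP2K2 difference in KD1 turned to 0.35 with E1A scaling and to 0.13 in the unscaled values. After the subtraction for similar GC content and signal MAP2K2 was -0.03 in KD1 and -0.24 in KD2, where MAP2K1 was 1.24 and 0.87. Each MEK gene had 1 probe, so no second probe bears on the contrast between them.

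The remaining kinases of this branch were within 1.5-fold at the brightest probe. BRAF, a RAF kinase, differed by 0.13 and 0.30, and MAPK3, the kinase ERK1, by 0.05 and 0.30. The brightest probe of ARAF, a relative of BRAF, read 1.98 in NC, 1.85 in KD1 and 1.80 in KD2, and its second probe read -0.89, -0.52 and -0.92. The ARAF probes had opposite signs in KD1, at -0.13 and 0.38. RPS6KA1 (RSK1, a kinase activated by ERK) read 2.79, 2.60 and 2.39 at its brightest probe and -0.07, 0.24 and -0.07 at its second. Its differences were -0.19 and -0.40 at the first and 0.31 and 0.01 at the second, so its probes too had opposite signs in KD1. RPS6KA3 (RSK2) read 1.82 in NC, 2.15 in KD1 and 2.35 in KD2, and its second probe, far downstream in the same transcript, read 1.5, 1.78 and 2.36. Both RPS6KA3 probes were highest in KD2, by 0.53 and 0.86 over NC, of which only the second was past 1.5-fold. The mean over both probes in KD2 was 0.69, past 1.5-fold, and the first probe was 0.59 after the subtraction for similar probes. The scaffold KSR1 was not well above background at either of its probes.

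In the PI3K and AKT group the catalytic subunits were within 1.5-fold of NC, and both members past 1.5-fold below NC were so in KD2. PIK3CA (p110 alpha) read -0.09 in NC, 0.19 in KD1 and 0.06 in KD2 at the probe used and 0.01, -0.17 and 0.02 at its second probe, which was the brighter in NC. Its KD1 difference was 0.28 at the first and -0.18 at the second, so its direction depended on the probe. PIK3CB (p110 beta) differed by 0.14 and -0.37. Of the regulatory subunits, PIK3R1 (p85 alpha) read -1.12 in NC, -0.53 in KD1 and -0.61 in KD2, or 151% and 142% of NC. Its KD1 difference of 0.59 was just past the 0.585 that counts as 1.5-fold, and was 0.27 after normexp. PIK3R2 (p85 beta) read 6.14 in NC, 5.91 in KD1 and 5.37 in KD2, or 85% and 58.3% of NC. PIK3R1 was thus higher than NC and PIK3R2 lower in both knockdowns, each past 1.5-fold in only 1 of them, although PIK3R2 in KD1 turned to 0.40 with E1A scaling and 0.18 in the unscaled values. With E1A scaling PIK3R2 in KD2 was -0.49, inside 1.5-fold.

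The brightest probe of AKT2, one of the AKT kinases, read 2.26 in NC, 2.13 in KD1 and 1.51 in KD2, or 91.6% and 59.8% of NC. KD2 was 0.61 under KD1 there, so the knockdown arrays were themselves more than 1.5-fold apart. Its other probes gave differences of -0.46 and 0.05 in KD1 and of -0.37 and -0.18 in KD2, and the mean over the 3 probes in KD2 was inside 1.5-fold (-0.43), as were the values with E1A scaling (-0.45) and after the subtraction for similar probes (-0.53). AKT1 differed by -0.04 and -0.11.

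Among the linked kinases and effectors, STAT3 was above NC in both knockdowns, by a margin that depended on the probe. STAT3, a transcription factor activated by JAK and receptor tyrosine kinases, gave -1.11 in NC, 0.19 in KD1 and 0.24 in KD2 with its brightest probe (hg19, chr17:40465923-40465982). That is 247% of NC in KD1, rank 371 of 19231, and 254% in KD2, rank 236 of 19421. This probe was chosen through its knockdown signal, since its mean over the 3 arrays was -0.23 against -0.26 for the other STAT3 probe, while in NC the other probe was brighter. A second STAT3 probe, 2106 bases upstream in the same transcript (hg19, chr17:40474404-40474463, minus strand), read -0.63, -0.21 and 0.05.
STAT3 probe at base 2069: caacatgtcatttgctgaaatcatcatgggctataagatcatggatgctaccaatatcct
Its differences were 0.42 in KD1 and 0.68 in KD2, so STAT3 was higher in both knockdowns at both probes, by less at the upstream one. In limma STAT3 differed by 1.32 (SE 0.32, unadjusted p = 0.00282, adjusted p = 0.235), the lowest adjusted p of the members. With the upstream probe limma gave 0.55 (SE 0.33, unadjusted p = 0.127, adjusted p = 0.677). After normexp correction the STAT3 differences shrank to 0.62 and 0.71.

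JAK1, a kinase that phosphorylates STAT3, read -1.57 in NC, -0.96 in KD1 and -1.16 in KD2, or 152% and 133% of NC. Its KD1 difference of 0.60 was also close to the limit, and was 0.16 after normexp. SRC, a membrane tyrosine kinase, differed by 0.18 and 0.08.

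The low value under the name PLCG1, the phospholipase C that receptors activate, did not come from its mRNA probe. The brightest probe of that name read 3.03 in NC, 2.10 in KD1 and 2.84 in KD2, or 52.3% and 87.1% of NC. It is annotated to ENST00000423733 and lies 21.8 kb from the probe for the RefSeq mRNA (hg19, chr20:39825368-39825427 against chr20:39803549-39803609). The mRNA probe read -1.17, -1.35 and -1.16, which is -0.18 and 0.01 from NC. The third probe of the name was not well above background on any array. With RefSeq mRNA probes alone, an alternative chosen after these values were seen, 0 members were lower in KD1, while the 6 higher in KD1 and the 4 higher and 2 lower in KD2 stayed as counts.

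**Figure D3:**
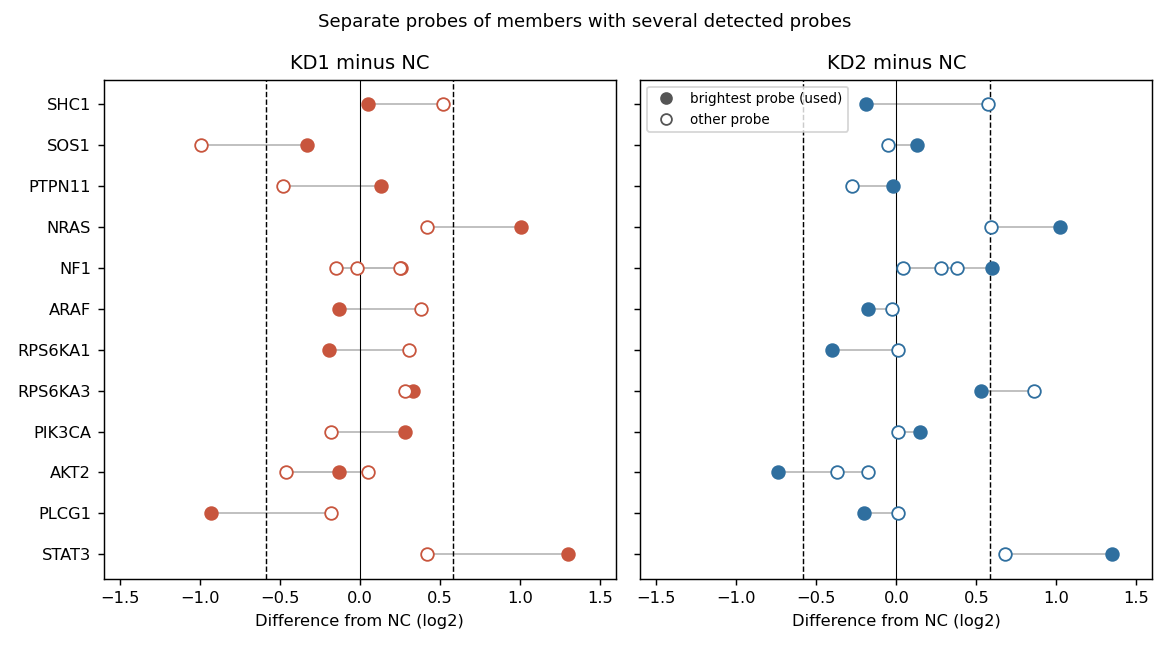
Difference from NC (log2) for each detected probe of the 12 members with several detected probes, in KD1 (left) and KD2 (right), with the brightest probe filled and dashed lines at 1.5-fold. STAT3 and NRAS are to the right of 0 at every probe, while PTPN11, NF1, ARAF, RPS6KA1, PIK3CA and AKT2 have probes on both sides of 0 in KD1.

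Probes on 1 transcript can be set against each other by position. For 9 members a pair of detected probes lay on the same RefSeq transcript, and the probe nearer the 3' end had the higher difference from NC for 5 of the 9 in KD1 and 6 of the 9 in KD2. STAT3 and NRAS were among them. Over all 2283 such transcripts the probe nearer the 3' end was the higher one for 62.3% in KD1 and 56.2% in KD2, with a median gap of 0.14 and 0.04. Probe position thus moved with the differences over these transcripts in both knockdowns, more often in KD1, and its part in the STAT3 and NRAS differences was not tested.

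**Figure D4:**
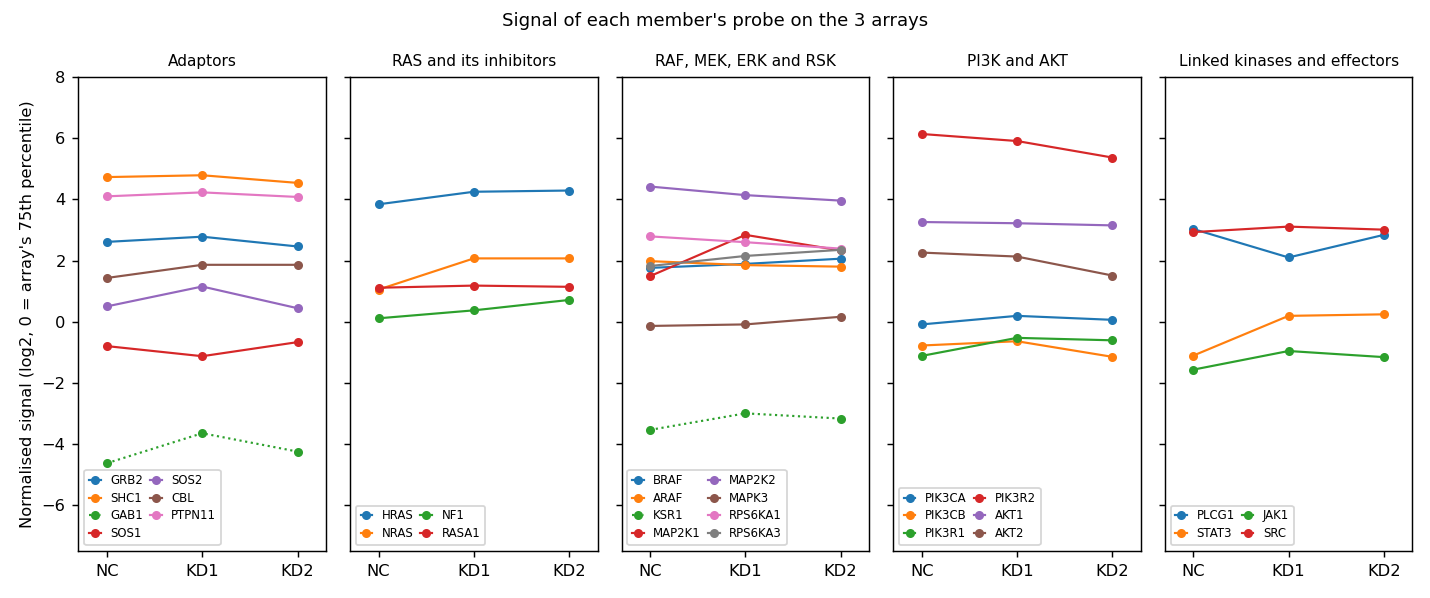
Normalised log2 signal of the probe used for each member on the NC, KD1 and KD2 arrays, in 5 panels by role, with dotted lines for GAB1 and KSR1, which were not well above background. Each line is to be read along its own course, since probes differ in brightness for reasons other than RNA level; NRAS, MAP2K1 and STAT3 step up from NC to both knockdowns, and PIK3R2 and AKT2 are lowest in KD2.

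Between KD1 and KD2 themselves, 3 of the 27 measured members were more than 1.5-fold apart, against 18.6% of 19544 genes. They were SOS2 (0.71 higher in KD1), AKT2 (0.61 higher in KD1) and PLCG1 at its brightest probe (0.74 lower in KD1). The robust SD of KD1 minus KD2 was 0.19 over the members and 0.38 over all genes. PIK3R2, PIK3CB and MAP2K1 followed with 0.54, 0.51 and 0.51 more in KD1.

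As the only test that these arrays allow across all genes, limma compared KD1 and KD2 as 1 group with NC, with 1 residual degree of freedom for each gene. No member passed an adjusted p of 0.05, against 0.414% of the 20050 genes tested. At an unadjusted p under 0.05 the fit called 3 of 27 members, STAT3, NRAS and MAP2K1, against 8.12% of all genes. The fit assumes that the lone NC array varies as the knockdown arrays do and that both knockdowns act alike. KD1 and KD2 kept 10.3% and 4.26% of the NC signal of PRMT1, so they were not equal in depth. The STAT3 probe was chosen through its knockdown signal, and with the probe brightest in NC STAT3 differed by 0.55 and was not called. The number of members called thus depends on the probe choice and is not read as an excess over all genes.

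Other genes of the same routes, taken from a list of 66 by textbook membership, were also called in both directions. In KD1 61 of them were measured, of which 12 were higher and 7 lower by 1.5-fold, or 19.7% and 11.5%, against 12.4% and 14% of all genes. In KD2 60 were measured, of which 8 were higher and 7 lower, or 13.3% and 11.7%, against 9.68% and 10.6%. Their median difference was 0.16 in KD1 and 0.01 in KD2. On all 3 arrays 58 were above background, and 10 of these passed 1.5-fold in KD1 and in KD2 in a single direction, 6 higher and 4 lower. The share of all genes that did so was not counted, and the shares for each knockdown alone do not stand in for it.

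SHOC2, a scaffold that helps to activate RAF, had the widest KD1 difference of the list, with 0.10 in NC, 1.58 in KD1 and 0.86 in KD2. RASA3, a GTPase-activating protein that switches RAS-family proteins off, read 3.69, 4.80 and 4.63. RICTOR, the subunit that defines mTOR complex 2, an activator of AKT, read 0.32, 1.27 and 1.00. PHLPP2, a phosphatase that inactivates AKT, read 0.40, 1.29 and 1.15. The higher genes thus include both activators and inhibitors of these routes.

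The others above NC were PTK2 (focal adhesion kinase), by 0.89 and 0.60, and GAB2, a docking protein related to GAB1, by 0.68 and 0.66. Of the genes below NC, 3 are described here. TSC2, a brake on mTOR complex 1, read 2.03, 1.42 and 1.04. PTPN6, the phosphatase SHP1, differed by -0.74 and -0.75, and CBLC, a relative of CBL, by -0.67 and -0.62. Of the 9 genes described, only RASA3 was past 1.5-fold in both knockdowns under all 13 alternatives, and TSC2 in KD1 turned to 0.02 with E1A scaling. PTPN6 and CBLC were inside 1.5-fold in both knockdowns with E1A scaling, at -0.10 and -0.47 and at -0.04 and -0.33. After normexp GAB2 (0.35 and 0.32), CBLC and PTPN6 were inside it in both, SHOC2 (0.54), PHLPP2 (0.58), RICTOR (0.48) and PTK2 in KD2, and TSC2 in KD1.

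**Figure D5:**
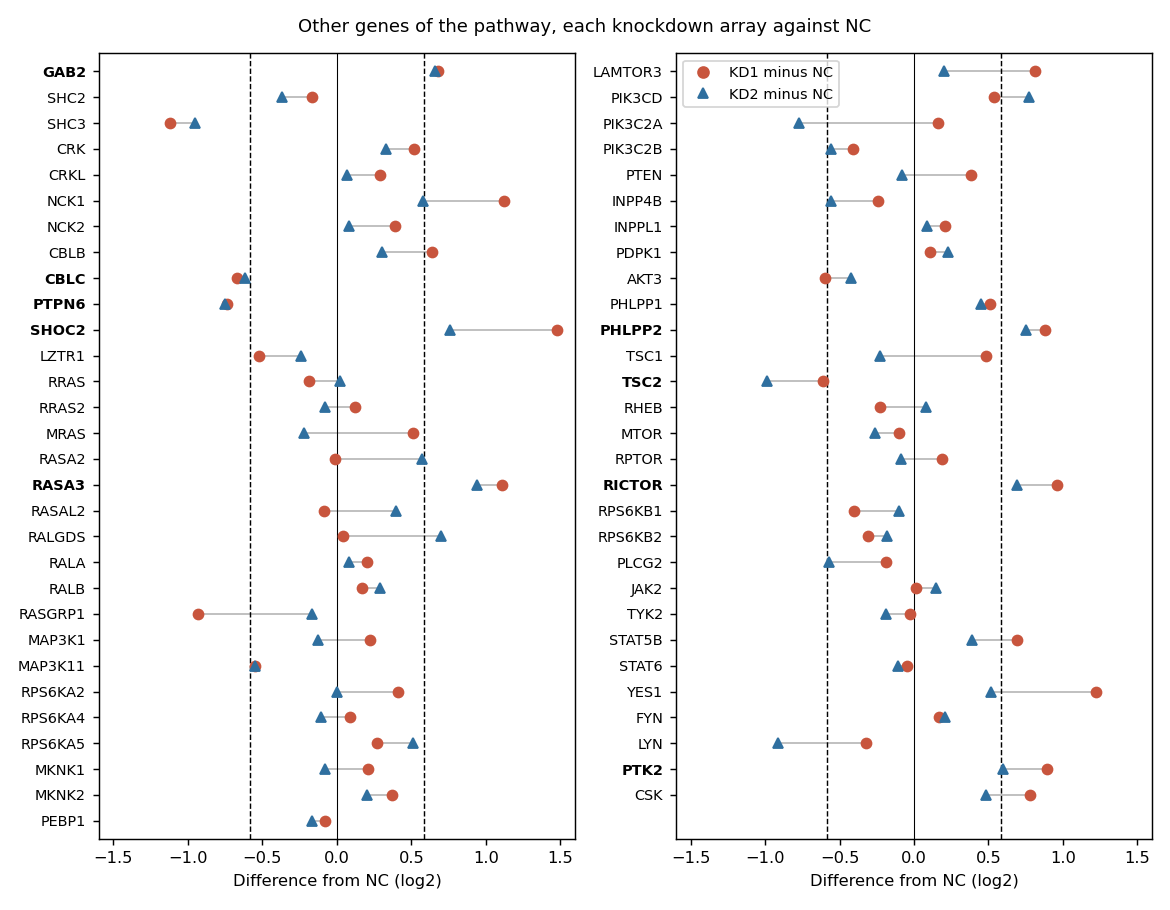
Difference of KD1 (circles) and KD2 (triangles) from NC (log2) for other pathway genes measured in both comparisons, with dashed lines at 1.5-fold. Names in bold are the 9 described genes detected on every array that passed 1.5-fold in 1 direction in KD1 and in KD2, which share the NC array.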

How the data were processed

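RNA of HCT116 cells in 3 groups of 1 array each (NC, KD1, KD2) had been labelled with Cy3. The deposited files hold spot intensity values that, per the labels, came from Agilent Feature Extraction 10.7.1.1, background-subtracted, with probe positions on hg19. The authors' value table holds the same processed intensity, averaged per probe and unscaled. The study's methods call genes at 1.5-fold with a p-value, which 1 array per group does not give, and name a pair of NC samples, of which 1 is analysed here.

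Flagged spots were left out, spots of a probe averaged, and log2 signals set relative to the 75th percentile over the 58071 probes usable on all arrays. The brightest probe stood for a gene, which counted as measured when 1 or both of the compared arrays had it well above background. A dim value was raised to the lowest detected signal. Between 40.7% and 42.3% of probes were well above background, and the median SD over repeated spots was 0.038 to 0.049 (log2). The Feature Extraction error of the members' probes had a median of 0.15 (log2). Differences have no replicate error. limma 3.58.1 in R 4.3.3 gave the p-values, adjusted by Benjamini-Hochberg over all genes. Scripts were tested on simulated data with less noise than these arrays and changes far past 1.5-fold. That test does not cover differences near 1.5-fold.

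All 29 members are described, with array values for those past 1.5-fold in any pair of arrays or with a probe past it where the others are not. Of the other pathway genes, those past it alike in both knockdowns are named, apart from 1 that is counted but not reported here. Members and lists were chosen with earlier results of these data known. The alternatives were other background corrections, scalings, filters, probe choices and folds. All 29 symbols matched RefSeq (GRCh38.p14), which was used for names only. The labels and the study's methods describe siRNA, its results short hairpins.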

Additional observations from a re-analysis of the deposited data

How the results depend on the processing

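No paired analysis was possible because each group has 1 array, and leaving out an array leaves no comparison or no residual degree of freedom. The higher and lower differences of SOS2, NRAS, NF1, MAP2K1, PIK3R1, PIK3R2, AKT2, PLCG1, STAT3 and JAK1 that passed 1.5-fold kept their sign under all 13 alternatives. The filters could not change these differences, and the probe choices could not change those of genes with 1 probe. PIK3R1 and JAK1 in KD1 were inside 1.5-fold under 3 of the 13, PIK3R2 in KD2 under 1. The limma counts (0 adjusted, 3 unadjusted) became 4 unadjusted with spike-in scaling and 2 with the probe brightest in NC. They were the same under the other settings in which limma was run. It was not run after the subtraction for similar GC content and signal. The causes of the shifts below were not tested. Counts below are given without the share of all genes past the fold under the same setting. The number of arrays limits the precision.

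The members' median moved from 0.14 in KD1 to 0.10 (75th percentile over detected probes), 0.78 (E1A), 0.26 (median scaling), 0.56 (authors' unscaled values) and 0.22 (mean in place of median). In KD2 it moved from 0.08 to 0.13, 0.37, -0.07, 0.18 and 0.13 under the same settings, to 0.13 without filter or floor and to 0.03 with normexp and with the probe brightest in NC. Members apart between KD1 and KD2 went from 3 to 7 (E1A), 5 (median scaling), 6 (unscaled) and 0 (fold of 2). Members higher in KD1 went from 6 to 20 (E1A), 12 (unscaled), 3 (normexp) and 3 (fold of 2), and those lower from 1 to 0 (E1A, unscaled, RefSeq mRNA probes, fold of 2) and 2 (mean over probes). Members higher in KD2 went from 4 to 10 (E1A) and 2 (fold of 2), and those lower from 2 to 0 (E1A, fold of 2) and 1 (mean over probes). The subtraction for similar GC content and signal also changed which members were called. In KD1 it brought SOS2 (0.42), PIK3R1 (0.56) and JAK1 (0.39) inside 1.5-fold. In KD2 it brought NF1 (0.52) and AKT2 (-0.53) inside and PIK3R1 (0.6) and RPS6KA3 (0.59) past it.

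Other pathway genes higher in KD1 went from 12 to 39 (E1A), 30 (unscaled) and 4 (fold of 2). Those lower went from 7 to 0 (E1A), 1 (unscaled), 4 (median scaling), 1 (normexp) and 1 (fold of 2). Those higher in KD2 went from 8 to 17 (E1A), 4 (median scaling), 2 (normexp) and 0 (fold of 2), and those lower from 7 to 3 (E1A), 11 (median scaling), 3 (normexp) and 0 (fold of 2). The RefSeq mRNA probes, the probes brightest in NC and the subtraction of like probes were chosen after seeing the data.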
